A study of Bos taurus with 30 samples.

Results

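The genes described here encode ion channels and neurotransmitter receptors: the pore-forming and auxiliary subunits of voltage-gated and other potassium channels, of sodium channels and of voltage-gated calcium channels, and the receptors for GABA, glycine, glutamate, acetylcholine (nicotinic) and dopamine. They were chosen by the form of the gene symbol, and 203 of the 35092 Entrez gene IDs in the count table had such a symbol. Of these, 157 had at least 10 counts in at least 3 of the 30 libraries and are called members below, and the other 46 had fewer counts. A member could pass this rule on the counts of 1 group alone. At the edge of the rule, DRD3, KCNF1 and KCNH5 were among those with exactly 10 counts in the third highest library, whereas GABRR1 and GLRA4 had 9 and KCNH7 and SCN2A had 8.

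RNA was sequenced from day 15 bovine conceptuses (Holstein), each cut into the embryonic disc (ED), from which the body of the calf forms, and the extra-embryonic membranes (EEM), which form the placenta. In vitro produced (IVP) conceptuses came from abattoir oocytes that were matured, fertilized and cultured without serum before transfer to recipient cows, and in vivo (IVV) conceptuses came from superstimulated, artificially inseminated cows; semen of the same bull was used for both. The groups were 7 ED and 6 EEM libraries of IVP embryos and 9 ED and 8 EEM libraries of IVV embryos, from 17 embryos, of which 13 (5 IVP and 8 IVV) gave both tissues. Each library is 1 tissue of an embryo. The paper's methods name far fewer recipient and donor cows than embryos, so embryos of a group shared cows, and the labels do not say which. A difference between these cows therefore cannot be told apart from the procedure. The embryos are not independent replicates of the procedure, and p-values describe the spread between these embryos. The study controlled for embryo morphology; in place of it the fits within a tissue held 1 surrogate variable, a term estimated from the counts, and sex was not used here.

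Ion channels set the voltage across the cell membrane and let calcium into the cell. Potassium channels hold the membrane at rest, sodium and calcium channels drive action potentials in nerve and muscle, and transmitter receptors either open a channel (GABA-A, glycine, nicotinic and ionotropic glutamate receptors) or signal through G proteins (metabotropic glutamate and dopamine receptors). Auxiliary subunits carry no pore and change where a channel sits and how it opens. At day 15 no neuron is present, and epithelial and stem cells are known to use members of the same families for cell volume, secretion and control of the cell cycle.

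Library totals lay between 48713218 and 63037371 counts. The labels of the tissues were checked against marker genes. The pluripotency genes NANOG, POU5F1 and PRDM14 were higher in the ED than in the EEM of the same embryo by 8.56, 5.40 and 6.03 on the log2 scale (adjusted p from 1.37e-12 to 3.12e-08, edgeR quasi-likelihood test), whereas SOX2 and UTF1 had at most 3 counts in every library. The summed level of 19 trophoblast markers was 13641 to 75680 counts per 1000000 (CPM) in the ED of IVP, 33229 to 51074 in the ED of IVV, 37496 to 88379 in the EEM of IVP and 37722 to 70090 in the EEM of IVV, so the ED pieces held trophoblast RNA as well. Among the 13 maternal blood and uterus markers, whose summed level was 7.29 to 52.5 CPM, PAEP and SERPINA14 had at most 3 counts in every library. Others were present: of the 5 tested between the tissues by the same test, 3 were higher in the ED and none lower. These were ALAS2, CD79A and UPK1A (log2 fold change 2.41, 2.42 and 2.30, adjusted p from 1.34e-05 to 1.40e-04). ALAS2 was 10.3 ± 4.27 and 16.0 ± 10.7 CPM in the ED of IVP and IVV. In bulk tissue, fewer cells of a type and less RNA per cell cannot be told apart.

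More members were detected in the ED than in the EEM, and most in the ED of IVV embryos. With 10 or more counts taken as detected, the ED of IVP embryos held 90 to 111 members (median 98), the ED of IVV embryos 98 to 139 (median 120), the EEM of IVP embryos 69 to 82 (median 78) and the EEM of IVV embryos 65 to 74 (median 71). The ranges of the ED and the EEM did not overlap, and those of IVP and IVV overlapped in both tissues. Over all genes the ranges of the ED also lay above those of the EEM: 14980 to 15633 genes had 10 or more counts in the ED of IVP, 15231 to 16230 in the ED of IVV, 14397 to 14873 in the EEM of IVP and 14258 to 14890 in the EEM of IVV. In the ED of IVV embryos every member passed 3 counts in some library, whereas 13 members stayed at 3 or fewer counts in all 7 ED libraries of IVP embryos, 34 did in the EEM of IVP and 27 in the EEM of IVV. The rule that chose the members bears on these counts, since 17 of the 157 had 10 counts in libraries of the ED of IVV alone.

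**Figure D1:**
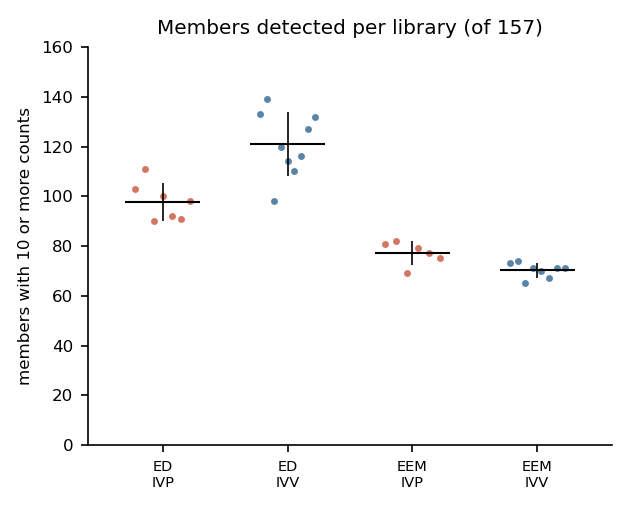
Number of the 157 members with 10 or more counts in each library (y axis) for the ED and EEM of IVP (red) and IVV (blue) embryos (x axis). Points are libraries, horizontal bars the group mean and vertical bars the SD; the ED of IVV embryos reaches 139 members and no EEM library passes 82.

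The members were transcripts of low abundance in both tissues. Together they took 0.0154% to 0.0467% of a library's counts, and 38 of 157 had a mean of 1 CPM or more over the 30 libraries. The most abundant member of a library held 16.7% to 50.2% of the members' counts. In 28 of 30 libraries it was KCNK1, a two-pore potassium channel of epithelia. In the ED its level was 89.2 ± 29.6 CPM in IVP (SD, n = 7) and 72.0 ± 22.7 CPM in IVV (n = 9), and in the EEM 93.0 ± 34.1 (n = 6) and 90.0 ± 28.8 CPM (n = 8), and these groups overlapped. KCNC4, a voltage-gated potassium channel, ranged from 6.63 to 24.9 CPM over all 4 groups. CACNA1S, the pore of the skeletal muscle calcium channel, ranged from 5.67 to 21.8 CPM, and KCNT1, a potassium channel opened by sodium, from 2.15 to 20.7 CPM. Of the 17 members that led their family by mean CPM, none passed the test between IVP and IVV in the ED, 1 did in the EEM (CACNG4) and 3 did between the tissues (SCN3A, GABRB2 and GRM4), against 6.2%, 4% and 20.9% of all genes tested, shares that these counts are near.

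The first comparison asked which members differed between the ED of IVP and IVV embryos. Of the 113 members with enough counts for the test, 13 were lower in IVP, 1 was higher and 99 did not pass. Over all 15733 genes tested, 4.8% were lower and 1.4% higher, against 11.5% and 0.885% of the tested members, and the median log2 fold change was -0.45 over the tested members and -0.01 over all genes. Of the 13 lower members, DRD2 and KCNE5 had 10 counts in no IVP disc, SCN9A in 1, KCNJ8 in 2 and the others in 3 to 7 of the 7, against 7 to 9 of the 9 IVV discs. The first 4 entered the test through the IVV discs, where they were high, so their differences are a description. GRIK3, GRIK4, KCNAB2 and CHRNA5, with 10 counts in 3 or 4 IVP discs, also needed the IVV discs to enter. Their p-values and the share of members called carry the same limit. The 13 were 2 sodium channel pores, 3 auxiliary subunits of potassium channels, 1 calcium channel auxiliary subunit, 1 inward rectifier, 2 kainate and 2 GABA-A receptor subunits, 1 nicotinic subunit and 1 dopamine receptor. None of the 8 calcium channel alpha1 pores and of the 5 metabotropic glutamate receptors tested passed.

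Among the sodium channels, SCN9A and SCN1A, both known as pores of neuronal channels, were lower in the ED of IVP embryos. SCN9A was 0.0557, 0.158 and 0.271 CPM (lowest, median and highest of 7) in the ED of IVP and 0.514, 1.16 and 2.18 CPM (of 9) in the ED of IVV. The groups did not overlap, and the log2 fold change was -3.14 (SE 0.42, adjusted p = 4.27e-05), for a gene with 10 counts in 1 of 7 IVP discs. SCN1A, whose loss in humans is a known cause of epilepsy, was 0.112, 0.384 and 0.592 CPM in the ED of IVP and 0.730, 1.25 and 2.68 CPM in that of IVV. Again every IVP disc lay below every IVV disc, with a log2 fold change of -2.10 (SE 0.39, adjusted p = 0.00158). In the EEM both genes were low in each procedure, at means of 0.0992 and 0.0645 CPM for SCN9A and of 0.181 and 0.163 CPM for SCN1A in IVP and IVV. SCN8A (2.53 ± 0.982 against 4.47 ± 3.70 CPM, adjusted p = 0.286) and SCN3A (3.86 ± 2.71 against 2.31 ± 1.74 CPM, adjusted p = 0.652), the pores with the most counts, did not pass.

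CACNA2D1, the alpha2delta-1 subunit that brings calcium channels to the surface and is the target of gabapentin, was lower in IVP discs. Its values were 0.203, 0.783 and 1.39 CPM in the ED of IVP and 1.06, 2.73 and 7.75 CPM in the ED of IVV (log2 fold change -2.13, SE 0.42, adjusted p = 0.00234), and only the lower end of the IVV discs reached into the IVP range. The pore subunit CACNA1A of the P/Q-type channel was 0.613 ± 0.258 and 1.59 ± 1.33 CPM and did not pass (adjusted p = 0.0848).

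KCNAB2, KCNIP3 and KCNE5, subunits without a pore that bind voltage-gated potassium channels, were lower in IVP discs. None of the 22 tested members of the voltage-gated family itself passed, a count near the background of 4.8% of all genes lower and 1.4% higher. KCNAB2, a cytoplasmic beta subunit, was 0.0678, 0.223 and 0.331 CPM in IVP and 0.348, 0.543 and 1.49 CPM in IVV discs, without overlap (log2 fold change -1.92, SE 0.42, adjusted p = 0.00563). KCNIP3, a calcium sensor that binds the Kv4 channels, was 0.352, 0.714 and 1.44 CPM in IVP against 0.633, 1.72 and 4.02 CPM in IVV discs (log2 fold change -1.53, SE 0.40, adjusted p = 0.0203). KCNE5, a small membrane-spanning subunit, had 0 counts in most IVP discs and at most 0.167 CPM, against 0.0528, 0.301 and 1.01 CPM in IVV discs (log2 fold change -3.08, SE 0.77, adjusted p = 0.0176, again through the IVV discs alone). KCNJ8, the pore of an ATP-sensitive potassium channel and the last of the 13, was named after its values were seen, at 0.160 ± 0.125 and 0.672 ± 0.778 CPM (adjusted p = 0.0434).

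KCNN4 moved the other way. This potassium channel opened by calcium, known from epithelia, red blood cells and dividing cells, was 1.32, 2.64 and 7.59 CPM in the ED of IVP and 0.457, 0.941 and 1.79 CPM in the ED of IVV (log2 fold change 1.57, SE 0.32, adjusted p = 0.00311). Of the 9 IVV discs, 1 (VE3, the highest) lay within the IVP range.

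Of the receptors, DRD2, the inhibitory dopamine receptor, was close to absent from IVP discs. It had 0 counts as the median and 9 as the highest count of the 7 IVP discs, or 0.157 CPM, and 3 to 81 counts in the 9 IVV discs, or 0.0494, 0.607 and 1.55 CPM. The log2 fold change was -3.99 (SE 0.86, adjusted p = 0.00671), of a gene that entered the test through the IVV discs alone. Its relative DRD4 was 0.290 ± 0.237 and 0.507 ± 0.275 CPM and did not pass (adjusted p = 0.206).

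GRIK4 and GRIK3, subunits of kainate receptors, which are cation channels opened by glutamate, were lower in IVP discs. GRIK4 was 0, 0.122 and 0.223 CPM in IVP discs and 0.0880, 0.497 and 2.12 CPM in IVV discs (log2 fold change -2.49, SE 0.58, adjusted p = 0.00889). GRIK3 was 0, 0.0962 and 0.279 CPM in IVP against 0.158, 0.481 and 0.844 CPM in IVV discs (log2 fold change -2.35, SE 0.56, adjusted p = 0.0114). The subunit GRIK5 (1.16 ± 0.312 and 2.65 ± 2.50 CPM, adjusted p = 0.0783) and the AMPA receptor subunit GRIA1 (1.26 ± 0.647 and 2.52 ± 2.10 CPM, adjusted p = 0.204) had wider spreads in IVV discs and did not pass, and the shared NMDA receptor subunit GRIN1 was 1.55 ± 0.489 and 1.90 ± 0.778 CPM. GRM3, a metabotropic glutamate receptor, had too few counts for the test, at 0 to 4 counts in IVP discs and 6 to 35 counts in IVV discs, without overlap.

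GABA-A receptors are pentamers of alpha, beta and other subunits that pass chloride, and 2 of their 11 tested subunits were lower in the ED of IVP. All 11 had a fitted change below 0, as did 69.9% of the tested members and 50.8% of all genes, and 9 did not pass. GABRA4, an alpha subunit, was 0.408, 1.11 and 1.93 CPM in IVP and 0.510, 2.89 and 9.74 CPM in IVV discs (log2 fold change -1.60, SE 0.46, adjusted p = 0.0369). The lowest IVV discs lay inside the IVP range of GABRA4. CHRNA5, an accessory alpha subunit of nicotinic receptors, was 0.0962, 0.223 and 0.463 CPM in IVP and 0.264, 0.632 and 2.09 CPM in IVV discs (log2 fold change -1.81, SE 0.47, adjusted p = 0.0190).

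**Figure D2:**
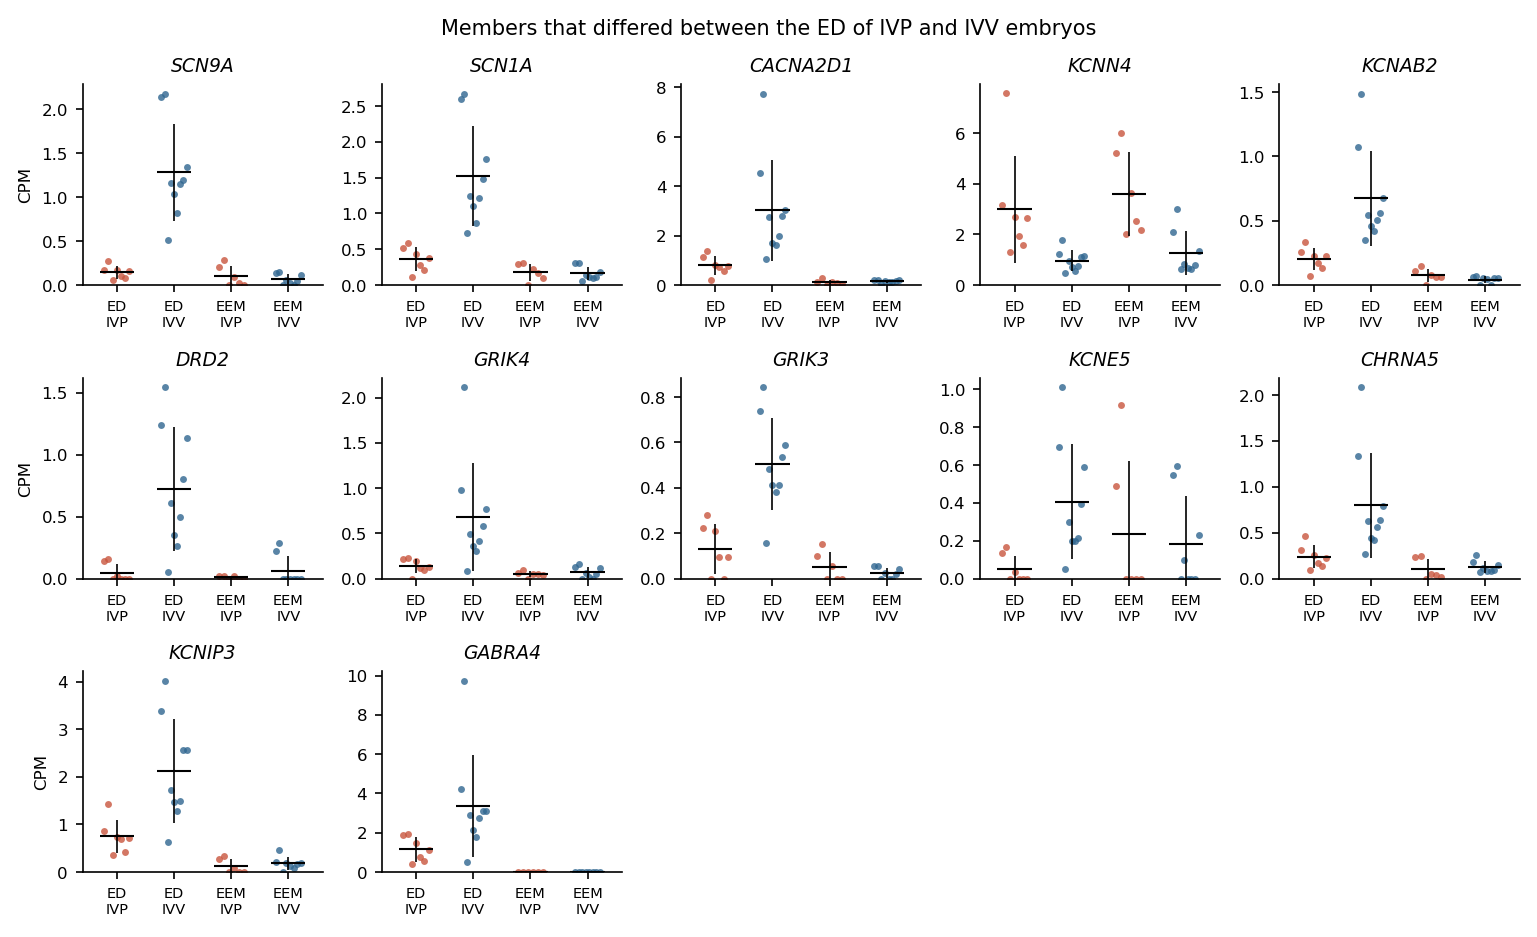
CPM (y axis, from 0, scaled per gene) of the named members that passed the test between IVP and IVV in the ED, ordered by p, in the 4 groups (x axis; IVP red, IVV blue). Points are libraries, horizontal bars the mean and vertical bars the SD; for SCN9A, SCN1A and KCNAB2 every IVP disc lies below every IVV disc, and KCNN4 is higher in IVP.

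The IVV discs were not alike. Disc VE5 was the highest of the 9 IVV discs for 10 of the 13 lower members and for 74 of all 157 members, and the summed level of the 13 was 46.4 CPM in it, against 6.8 to 23.3 CPM in the other IVV discs and 2.6 to 8.9 CPM in IVP discs. Disc VE4 stood at the other end and lay within the IVP range for 9 of the 13, followed by VE3 for 4 and VE6 for 3, while VE26, VE28, VE29 and VE5 lay within it for none. The summed level of the epiblast markers, described next, was 572 CPM in VE5 and 147 CPM in VE4, the highest and the lowest of the IVV discs. Without VE5, 8 members were lower in IVP discs, and CHRNA5 (adjusted p = 0.10), GRIK4 (0.0507), KCNIP3 (0.0847) and GABRA4 (0.137) were among those that no longer passed; without VE4, 20 were lower. GABRA4 was also lost without IVP10, IVP11, IVPF10, IVPF13, IVPF15, VE19, VE26, VE28 or VE29 (adjusted p from 0.0502 to 0.0732).

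Some markers of the epiblast and of the mesoderm were also lower in IVP discs. The summed level of the 12 epiblast markers was 109 to 304 CPM (median 147) in IVP discs and 147 to 572 CPM (median 239) in IVV discs, and 2 of the 7 tested were lower in IVP, POU5F1 (29.3 ± 9.03 against 94.7 ± 62.9 CPM, log2 fold change -1.72, adjusted p = 0.00955) and PRDM14 (log2 fold change -1.95, adjusted p = 0.00311). The 15 primitive streak and mesoderm markers summed to 48.0 to 116 CPM in IVP and 111 to 233 CPM in IVV discs, and 8 of the 14 tested were lower in IVP, led by APLNR (0.258 ± 0.292 against 14.8 ± 10.7 CPM) and KDR (0.412 ± 0.225 against 13.5 ± 9.73 CPM), both receptors of early mesoderm and vessels. None of 18 trophoblast and 12 hypoblast markers tested passed. Over all genes 4.8% were lower and 1.4% higher. The part of these marker levels in the results for the channels and receptors was not tested.

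The low-count filter decided how many members could be called. With the filter set at the rule that chose the members, 151 were tested, of which 28 fell and 3 rose in IVP discs (6.81% and 2.16% of all genes), and these 28 held all 13 above. Members that reached 10 counts through the IVV discs alone were bound to be low in the other groups, so that their part of the 28 is a description. Of the 13 members at 3 or fewer counts in all IVP discs, 8 were of this kind, and no fold is given for the 13. KCNK15, a two-pore potassium channel, had the highest mean of the 13 in IVV discs (0.622 ± 0.715 CPM), followed by KCNV1, a potassium channel subunit that modifies other pores (0.546 ± 0.517 CPM), and both were named after their values were seen. Each had 10 counts in 6 of the 9 IVV discs and 0 counts in at least 1.

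**Figure D3:**
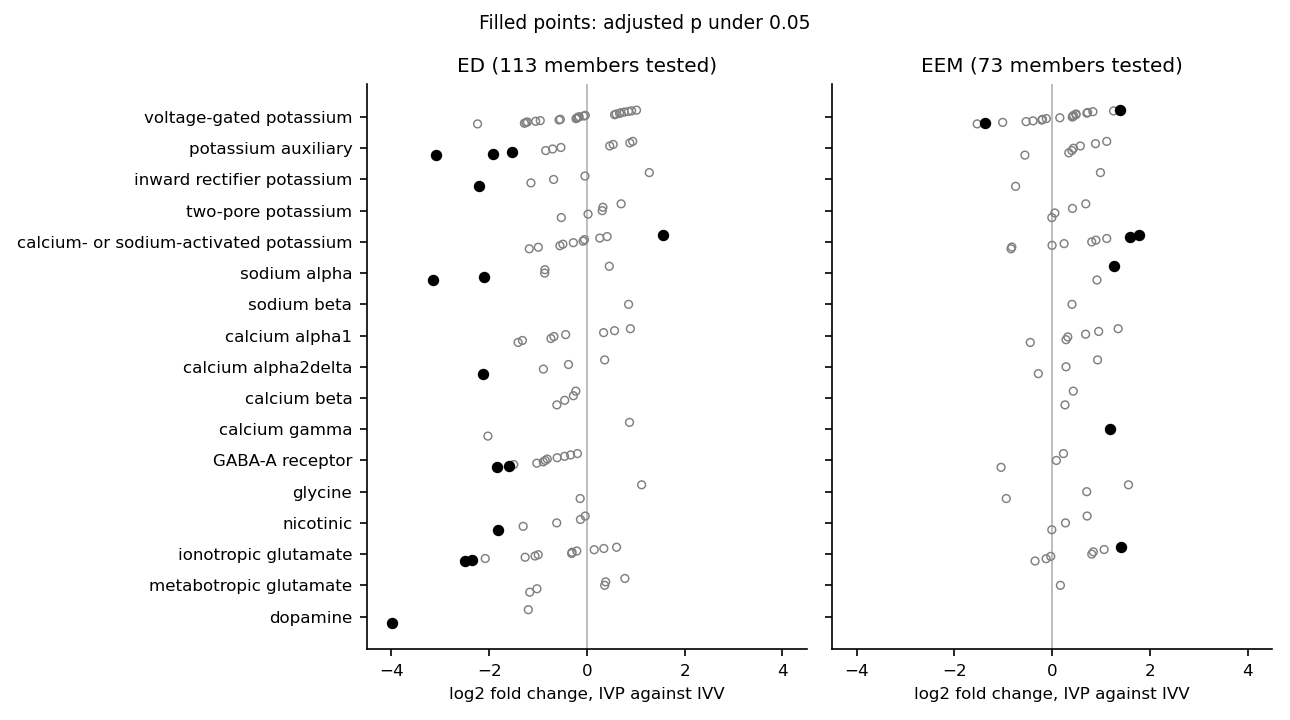
Log2 fold change of IVP against IVV (x axis) for the tested members of each family (y axis) in the ED (left, 113 members) and the EEM (right, 73 members). Filled points passed an adjusted p of 0.05: 14 in the ED, 13 of them below 0, and 7 in the EEM, 6 of them above 0.

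In the EEM, 73 members could be tested between IVP and IVV, and 6 were higher and 1 was lower in IVP. Of all 14718 genes tested, 2.41% were higher and 1.59% lower, and the median log2 fold change was 0.41 over the tested members and 0.00 over all genes. Potassium channels made up 4 of the 7 and 41 of the 73 tested. KCNN4, higher in the ED of IVP as well, was 2.03, 3.09 and 5.99 CPM (lowest, median and highest of 6) in IVP and 0.628, 0.809 and 3.02 CPM (of 8) in IVV membranes (log2 fold change 1.77, SE 0.33, adjusted p = 8.29e-04). KCNN2, a smaller channel of the same calcium-activated family, was 0.634, 0.729 and 1.37 CPM in IVP and 0.129, 0.293 and 0.491 CPM in IVV membranes, without overlap (log2 fold change 1.59, SE 0.38, adjusted p = 0.00958). KCND1, a Kv4 channel, was 3.25, 3.78 and 4.98 CPM in IVP and 0.790, 1.20 and 4.32 CPM in IVV membranes (log2 fold change 1.40, SE 0.29, adjusted p = 0.00244). KCNG1, a subunit that forms no channel alone, was the member that fell, at 0.180, 0.285 and 0.568 CPM in IVP and 0.330, 0.977 and 2.17 CPM in IVV membranes (log2 fold change -1.37, SE 0.39, adjusted p = 0.0378).

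The other 3 were subunits of excitatory channels. SCN8A, a sodium channel pore, was 0.417, 1.26 and 1.65 CPM in IVP and 0.309, 0.444 and 0.678 CPM in IVV membranes (log2 fold change 1.28, SE 0.34, adjusted p = 0.0260). CACNG4, a protein that escorts AMPA receptors, was 1.73, 4.08 and 9.37 CPM in IVP and 1.04, 2.47 and 3.30 CPM in IVV membranes (log2 fold change 1.19, SE 0.33, adjusted p = 0.0295). GRIA4, an AMPA receptor subunit, was 0.394, 0.615 and 1.14 CPM in IVP and 0.106, 0.216 and 0.490 CPM in IVV membranes (log2 fold change 1.42, SE 0.39, adjusted p = 0.0318). In each case the groups overlapped in part.

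Most of the calls in the EEM were near the threshold. Without IVP11, 3 members were higher in place of 6, and with no surrogate variable 2 were higher and none lower. CACNG4 was lost without any of IVP11, IVP14, IVPF14, VE19, VE26, VE28, VE29 and VE3 (adjusted p from 0.0547 to 0.186), GRIA4 without IVP11, IVP14, IVPF9, VE26, VE3 or VE5 (0.0669 to 0.0965), SCN8A without IVP10, IVP11, IVPF9, VE26, VE3 or VE5 (0.0509 to 0.0748), and KCNG1 without any library but IVPF13, VE29 and VE4 (0.0517 to 0.139), while KCNN4, KCND1 and KCNN2 passed without each library in turn. With no surrogate variable KCND1 did not pass (log2 fold change 0.97, adjusted p = 0.212), and KCNN4 and KCNN2 did.

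**Figure D4:**
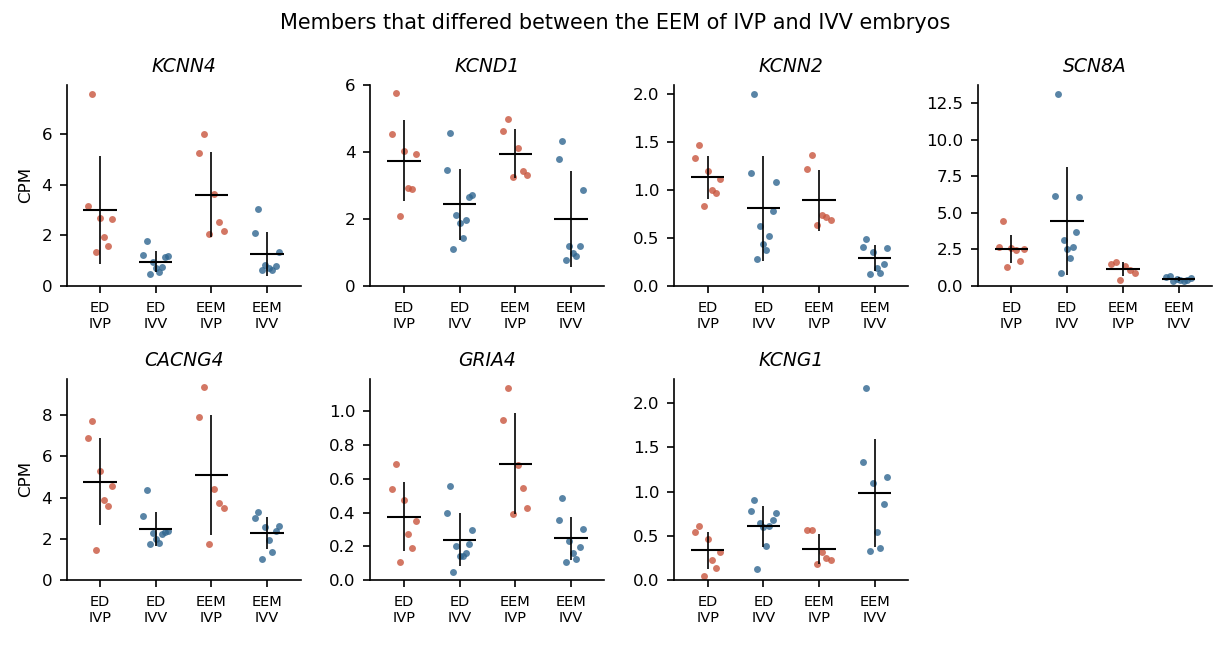
CPM (y axis, from 0, scaled per gene) of the 7 members that passed the test between IVP and IVV in the EEM, ordered by p, in the 4 groups (x axis; IVP red, IVV blue). Points are libraries, horizontal bars the mean and vertical bars the SD; KCNN2 in the EEM shows no overlap of IVP and IVV, and KCNG1 is the member that is lower in IVP.

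The second question was how the members were divided between the tissues of 1 embryo. In the 13 embryos with both, 87 members were tested with the embryo as a block, and 25 were higher and 3 lower in the ED, against 12.8% and 8.1% of the 14898 genes tested. The median log2 fold change was 0.43 over the tested members and -0.08 over all genes. Of the 25, 14 were higher in the ED in all 13 embryos, and the others in at least 10. GABRA4, GABRA5, GRIK5 and CACNA1A were among the 25 and entered the test through the ED alone. The share of members higher in the ED is therefore a description.

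The widest gaps were in GABA-A and glutamate receptor subunits. GABRA4 was 0.408, 2.12 and 9.74 CPM (lowest, median and highest of 13) in the ED, while no EEM library had more than 1 count, so that the ED was at least 44.9-fold higher. GABRA5, the alpha subunit known from the hippocampus, was 0.264, 0.675 and 2.61 CPM in the ED, again with at most 1 count in any EEM library, and was at least 14.8-fold higher. If both mates of a read pair were counted, 3 fragments are 6 counts and these bounds become 22.4-fold and 7.41-fold. Their adjusted p-values were 5.53e-13 and 1.72e-10. GRIK5 was 0.802, 1.38 and 8.62 CPM in the ED against at most 4 counts in the EEM (adjusted p = 1.17e-08). GRIA1 was 0.408, 1.85 and 7.60 CPM in the ED against 0, 0.0724 and 0.284 CPM in the EEM (log2 fold change 4.39, SE 0.52, adjusted p = 4.06e-06). For these 4 genes every ED library lay above every EEM library. Of them, GABRA4, GABRA5 and GRIK5 had 10 counts in no EEM library. They entered the test through the ED alone, where they were high, so their differences are a description.

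Calcium and sodium channel subunits followed. CACNA1A was higher in the ED by 3.49 on the log2 scale (SE 0.35, adjusted p = 3.53e-07, 1.23 ± 1.21 against 0.0945 ± 0.0605 CPM, n = 13), and CACNA2D1 by 3.76 (SE 0.38, adjusted p = 4.59e-07, 2.23 ± 2.06 against 0.139 ± 0.0830 CPM). KCNIP3 was higher by 3.38 (SE 0.46, adjusted p = 1.82e-05), SCN1A by 2.58 (SE 0.38, adjusted p = 3.50e-05, 1.08 ± 0.788 against 0.166 ± 0.104 CPM) and CHRNA5 by 2.42 (SE 0.38, adjusted p = 9.01e-05). All but CHRNA5, which was higher in 12, were higher in the ED in 13 of 13 embryos. CACNA1A had 10 counts in no EEM library and entered the test through the ED alone, so its difference is a description. DRD2 had too few counts for this test (0.486 ± 0.542 CPM in the ED and 0.0426 ± 0.0957 CPM in the EEM). With the filter at the members' own rule 62 members were higher and 3 lower in the ED, of 154 tested, against 14.4% and 9.57% of all genes, with the same limit on members that entered through 1 group. In the 5 IVP embryos alone SCN1A (1.57, adjusted p = 0.252) and CACNA2D1 (2.81, adjusted p = 0.0777) did not pass.

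KCNC2, SCN3A and KCNA6, all pores, were lower in the ED. KCNC2, a fast voltage-gated potassium channel, was 0.663, 1.75 and 4.61 CPM in the ED and 1.52, 4.49 and 8.66 CPM in the EEM and was lower in the ED of all 13 embryos (log2 fold change -1.21, SE 0.19, adjusted p = 8.06e-05). SCN3A, the sodium channel of the foetal brain, was 2.69 ± 1.85 and 5.63 ± 3.94 CPM (log2 fold change -0.997, SE 0.20, adjusted p = 0.00131). KCNA6, a delayed rectifier, was 2.94 ± 2.26 and 5.08 ± 3.56 CPM (log2 fold change -1.04, SE 0.29, adjusted p = 0.0143). SCN3A and KCNA6 were each higher in the ED of 1 embryo, and neither passed without the embryo block (adjusted p = 0.088 and 0.354). In the 5 IVP embryos alone KCNC2 (adjusted p = 0.0724) and KCNA6 (0.728) did not pass, nor did SCN3A in the 8 IVV embryos alone (0.0716).

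**Figure D5:**
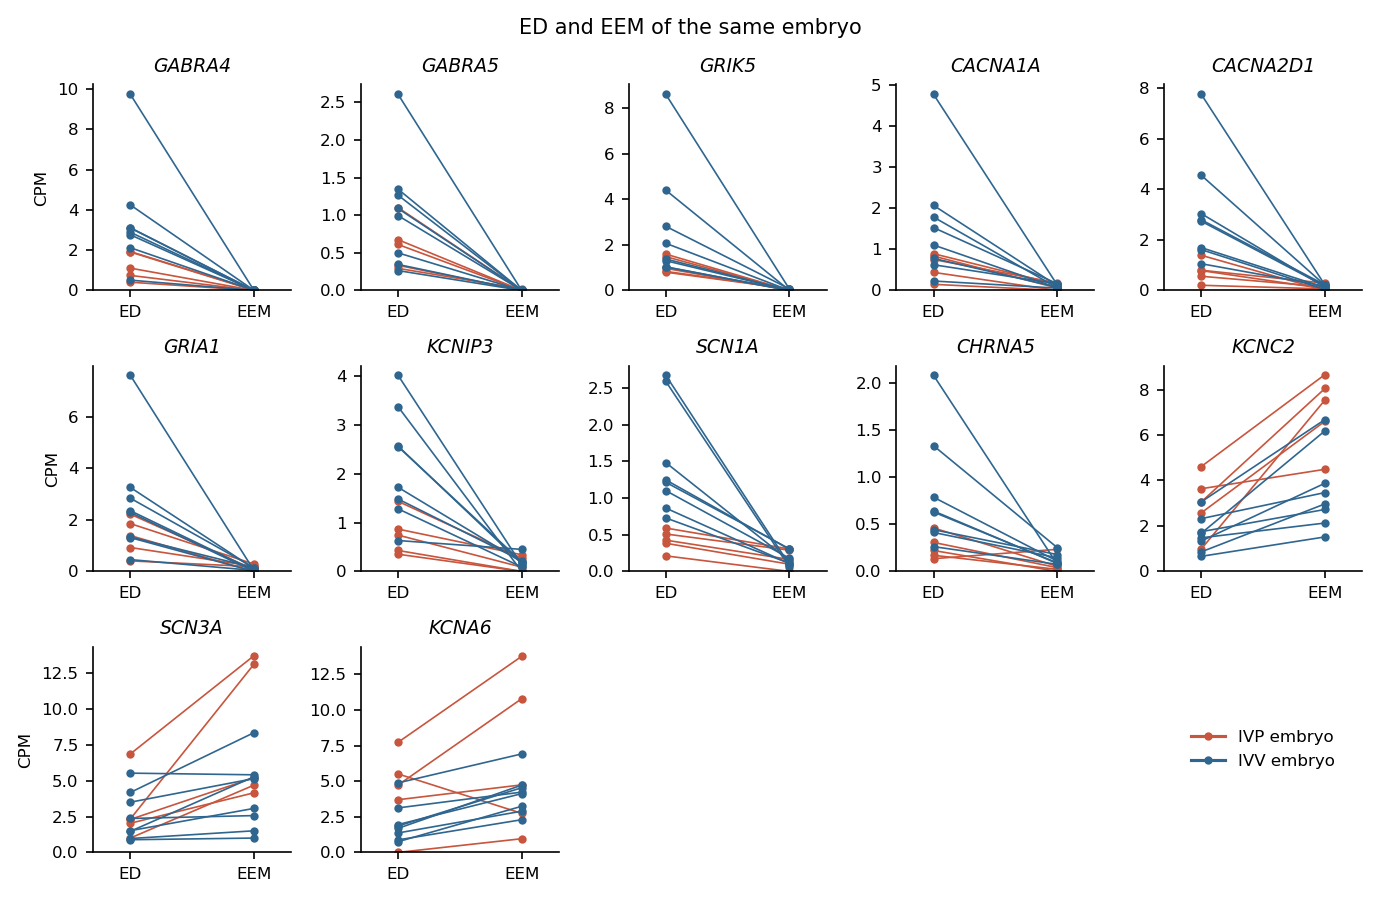
CPM (y axis, from 0, scaled per gene) in the ED and EEM (x axis) of the 13 embryos with both tissues, for 9 of the 10 members with the smallest p that were higher in the ED and the 3 that were lower. A line joins the tissues of an embryo (IVP red, IVV blue); all lines of GABRA4 end at or next to 0 in the EEM, and all lines of KCNC2 rise towards the EEM.

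Several members lie next to each other in the genome, as read from the order of protein-coding genes in the RefSeq annotation of ARS-UCD2.0, and their levels differed within such groups. These groups were chosen after the values were seen. GABRA5 and GABRG3 follow each other without another protein-coding gene between them, and GABRG3 was 0.155 ± 0.106 and 0.0827 ± 0.0669 CPM in the ED of IVP and IVV and 0.234 ± 0.100 and 0.0703 ± 0.0349 CPM in their EEM, unlike GABRA5, which had its counts in the ED. GABRA4 borders GABRB1, a beta subunit that was 0.675 ± 0.274 CPM in the ED of IVV and 0.600 ± 0.293 CPM in the EEM of IVV and did not pass the test between the tissues (log2 fold change 0.16, SE 0.22, adjusted p = 0.626). CHRNA5 borders CHRNA3, and both were higher in the ED (CHRNA3 by 1.97 on the log2 scale, SE 0.35, adjusted p = 3.04e-04). The libraries were not stranded, so reads of genes that overlap on opposite strands cannot be told apart.

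Whether the procedure acted differently on the tissues was tested by the interaction in the 13 embryos, with 131 members. Of these, 1 passed with a lower ratio of IVP to IVV in the ED than in the EEM, and none passed in the other direction, against 0.929% and 0.107% of the 16784 genes tested; 28 members (21.4%) and 10.3% of all genes had an unadjusted p under 0.05. SCN9A (difference of log2 fold changes -3.59, SE 0.94, adjusted p = 0.0695), DRD4 (-3.46, SE 0.95, adjusted p = 0.0852), SCN1A (-1.63, SE 0.70, adjusted p = 0.397) and GABRA4 (-2.94, SE 1.38, adjusted p = 0.519) did not pass. Within the 8 IVV embryos 39 of 96 members were higher in the ED (40.6%, against 15.3% of all genes), and within the 5 IVP embryos 6 of 88 (6.82%, against 3.16%). In these fits 2 and 1 members were lower in the ED, against 5.95% and 0.135% of all genes. The shares higher in the ED carry the limit on members that entered through the ED alone.

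Genes that work beside the members were read from lists. Beside their counts stand the shares over all genes, in IVP discs 4.8% lower and 1.4% higher, in IVP membranes 1.59% and 2.41%, and 12.8% higher and 8.1% lower in the ED than in the EEM. Of 27 tested genes for making and moving transmitters, 4 were lower in the ED of IVP: GAD1, which makes GABA (0.0370 ± 0.0440 against 0.704 ± 0.805 CPM, adjusted p = 0.00205), SLC6A13, a GABA transporter (0.0445 ± 0.0343 against 0.477 ± 0.184 CPM, adjusted p = 4.16e-04), PNMT, which makes adrenaline (adjusted p = 6.91e-04), and TPH2, which makes the precursor of serotonin (adjusted p = 0.0289). GAD1, SLC6A13 and PNMT had 10 counts in no IVP disc and entered the test through the IVV discs alone, so their differences are a description. TPH2 was lower in the EEM of IVP too (0.105 ± 0.0874 against 0.548 ± 0.359 CPM, adjusted p = 0.0105), where 1 of 21 tested genes was higher, the vesicular glutamate transporter SLC17A7. GAD1 had 0 counts in every EEM library of IVV embryos and 0.172 ± 0.194 CPM in the EEM of IVP. Its interaction passed (adjusted p = 0.0023), but it rests on a group at 0 and on IVP discs without 10 counts, so it is a description too. Between the tissues 5 of 22 were higher in the ED, among them ABAT, which breaks down GABA, by 2.44 on the log2 scale.

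Of 78 other ion channels tested, 7 fell and 2 rose in IVP discs, with a median log2 fold change of 0.11, against 4.8% and 1.4% of all genes. The lower ones included TRPV4, a channel that senses swelling and stretch (0.213 ± 0.107 against 1.31 ± 0.508 CPM, adjusted p = 4.34e-04), and the acid-sensing channels ASIC1 and ASIC2 (ASIC2 with 10 counts in no IVP disc), while ASIC3 (adjusted p = 0.016) and the lysosomal channel MCOLN3 (adjusted p = 0.0463) were higher. In the EEM 1 of 72 was lower and 2 were higher, and between the tissues 11 of 72 were higher and 2 lower in the disc, against 12.8% and 8.1% of all genes. Of 43 synaptic scaffold and channel partner genes, 3 were lower in the ED of IVP (HOMER3, FGF12 and DLGAP3), none of 37 passed in the EEM, and 22 of 39 were higher and 2 lower in the ED than in the EEM, among them LHFPL4, a GABA-A receptor partner, by 4.19 on the log2 scale.

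Neuronal markers were read at low levels. Of 19 tested genes of neuronal differentiation, 5 were lower in the ED of IVP and none higher (4.8% and 1.4% of all genes), among them the neurofilament NEFL (0.430 ± 0.178 against 1.49 ± 0.724 CPM, adjusted p = 0.00445) and the tubulin TUBB3 (4.63 ± 1.67 against 13.1 ± 8.25 CPM, adjusted p = 0.00884). The proneural factors NEUROG1 and NEUROD1, and NEUROD4, MYT1 and INSM1, had at most 3 counts in every IVP disc. NEUROD4 and ONECUT1 had at most 3 counts in every IVV disc. The summed level of the list was 40.9 to 62.9 CPM in IVP and 42.9 to 104 CPM in IVV discs. In the EEM 1 of 13 was lower and 1 higher, and 11 of 16 were higher in the ED than in the EEM (12.8% of all genes). Of the 8 neural plate genes tested, PAX3 was lower in the ED of IVP (0.143 ± 0.148 against 1.06 ± 0.552 CPM, adjusted p = 0.00649, with 10 counts in 2 of 7 IVP discs), none of 6 passed in the EEM, and 2 were higher and 1 lower in the ED than in the EEM.

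The marker lists stood as follows in the remaining tests. In the EEM, 1 of 5 epiblast markers was higher in IVP (LIN28B) and 1 of 12 hypoblast markers was lower (TTR), and none of 7 mesoderm, 18 trophoblast and 4 maternal markers passed. Of the 7 maternal markers tested in the ED, MUC1 was higher in IVP (14.2 ± 6.19 against 6.65 ± 2.37 CPM, adjusted p = 0.0144). Between the tissues, 7 of 7 epiblast, 8 of 10 mesoderm, 5 of 12 hypoblast and 3 of 5 maternal markers were higher in the ED, and 6 of 18 trophoblast markers were lower, against 12.8% and 8.1% of all genes.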

How the data were processed

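The deposited file holds raw counts per Entrez gene ID. Per the paper's methods and the submitters' processing notes, the authors sequenced non-stranded poly(A) libraries with paired ends, cleaned the reads, aligned them to ARS-UCD1.3 with STAR 2.7.0b and counted them with featureCounts (Subread 2.0.3); FastQC 0.11.9 and Trimmomatic are also listed in the notes. The counts may hold each mate of a pair, so that halved counts were an alternative. Symbols were read from the RefSeq gene table of ARS-UCD2.0, which paired 31630 of 35092 IDs (90.1%, with 99.5% of counts); since its build differs from that of the files, no coordinates are given, and no sequences were read.

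Counts were tested with edgeR 4.0.16 in R 4.3.3 (quasi-likelihood, TMM scaling, filterByExpr with a minimum count of 10), with Benjamini-Hochberg adjustment over all genes tested and a threshold of 0.05. ED and EEM were fitted apart with 1 surrogate variable from sva 3.50.0, after the study's control for morphology, and ED against EEM and the interaction in 13 embryos with the embryo as a block; the pairing comes from the embryo itself. The SE is the log2 fold change over the root of F. CPM used TMM. DESeq2 1.42.0, other filters, scalings, terms and left-out embryos were alternatives. The scripts were tested on simulated data. The floor is 3 counts per library (about 0.0553 to 0.0593 CPM), and counts cover counting error only.

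The members and the lists (other ion channels, transmitter synthesis and transport, synaptic scaffold and channel partners, neuronal differentiation, neural plate, and markers of epiblast, streak and mesoderm, trophoblast, hypoblast and maternal blood and uterus) were chosen with earlier results of these data known. Genes were named by rule: GABRA4, SCN1A, DRD2 and GRM3, up to 10 called members per comparison and direction with the smallest p, up to 5 called in the interaction, and the member with the highest mean CPM of each family. Values of some genes are not reported here; they remain in the counts. SOX3, PAX7 and TDGF1 were not found under these symbols. The letter that ends the sample titles is not explained in the labels and was used as an alternative term.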

Additional observations from a re-analysis of the deposited data

Results flagged for a closer look

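In 8 of 156 groups of values of the 41 named genes, 1 library stood apart from the rest of its group by Dixon's test on the log2 CPM; chance alone flags about 1 in 20 such groups. In the ED of IVP embryos, CACNA1A was 0.148 CPM in IVP10 against 0.439 to 0.894 CPM in the others, and GRIK4 was 0 CPM in IVP11 against 0.0928 to 0.223 CPM. In the ED of IVV embryos, GRIK3 was 0.158 CPM in VE4 against 0.382 to 0.844 CPM, KCNA6 was 0.0152 CPM in VE6 against 0.752 to 4.88 CPM, KCNG1 was 0.122 CPM in VE6 against 0.379 to 0.905 CPM, and KCNK1 was 27.0 CPM in VE24 against 57.9 to 101 CPM. In the EEM of IVV embryos, CACNA2D1 was 0.0359 CPM in VE3 against 0.113 to 0.218 CPM, and KCNK1 was 36.5 CPM in VE24 against 76.9 to 134 CPM, so that both tissues of VE24 were low in KCNK1. All of these but the KCNK1 values rest on few counts: 8 for CACNA1A, 0 for GRIK4, 9 for GRIK3, 1 for KCNA6, 8 for KCNG1 and 2 for CACNA2D1.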

How the results depend on the processing

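The 31 calls of members named by the rule for the smallest p, or fixed by name, kept their direction in the alternatives run for them; other named genes were not followed. In the ED, members lower in IVP numbered 13, and 22 with DESeq2, 28 with the filter of 10 counts in 3 libraries and 30 without a filter (157 tested), all 13 being among the last 2 sets; leaving out an embryo gave 8 to 20. Members higher in IVP numbered 1, and 3 with 2 surrogate variables, 5 with DESeq2, 2 with DESeq2 size factors, 3 with either filter, 3 with halved counts, 2 with the title letter as a term and 1 to 3 without an embryo. In the EEM the 1 lower became 0 with no surrogate variable or the title letter, 2 with the filter of 10 counts in 3 libraries and 0 to 2 without an embryo, and the 6 higher became 8 with either filter, 2 with no surrogate variable and 3 to 8 without an embryo. Between the tissues, the 25 higher in the ED became 62 and 61 with the filters, 16 with halved counts (61 tested), 39 in IVV embryos alone and 6 in IVP embryos alone, and 22 to 29 without an embryo; the 3 lower became 1 without the replicate block, 1 in IVP embryos alone and 3 to 4 without an embryo. For the interaction, the 1 member became 3 without the replicate block, 4 with DESeq2, 3 without a filter, 2 with halved counts and 1 to 3 without an embryo, and none passed in the other direction in any of these fits. The cause of these shifts was not tested, except that the filters and halved counts change how many members are tested. DESeq2 size factors moved the median of all genes by at most 0.0233 on the log2 scale. Members with few counts limit the precision, since a library at 0 counts allows about 3.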
